A study of Mus musculus with 25 samples.

Results

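Hes1, Hes5, Hey1, Hey2, Heyl, Nrarp and Dtx1 are commonly read genes of Notch signalling, and their transcripts were followed here through 25 mouse RNA sequencing libraries. The 7 genes were taken by name, by no rule on their values, from the 45706 genes of the larger of the 2 deposited count tables. Ensembl identifiers were matched to symbols first. Earlier results of these data were known when the genes were chosen. All 7 were listed in both tables. In the hypothalamus libraries all 7 passed the filter on low counts, and in the cultured cells Hes1, Hey1, Nrarp and Dtx1 passed it.

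The first experiment used mice heterozygous for Slco1c1-CreERT2, in which the Slco1c1 promoter drives a Cre that tamoxifen activates, and for a ROSA26 lSl L10a-GFP allele, which adds GFP to ribosomal protein L10a where Cre has acted. All its groups shared both alleles and the tamoxifen. At 12 weeks of age, 3 weeks after tamoxifen, the mice were given a high-fat diet (HFD) or a control diet (CD) for 3 days. Hypothalami of 4 mice, 2 female and 2 male, were pooled per sample. Tagged ribosomes were precipitated with antibodies against GFP, a method called bacTRAP, which gave 4 pools each of HFD IP, CD IP, HFD INPUT and CD INPUT, where IP is the precipitated RNA and INPUT the whole lysate. The second experiment used cEND, a mouse brain endothelial line, given DMSO or the Glut1 inhibitor WZB117 at 0.5 or 10 µM. Each treatment had 1 library at each of passages 12, 14 and 18, so that its replicates were culture stages of 1 line. The stated aim was to compare brain endothelial transcripts between diets, and to ask whether blocking glucose transport changes Notch signalling in culture.

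In Notch signalling, a ligand on one cell leads to cleavage of the Notch receptor on its neighbour, and the freed intracellular domain joins the DNA-binding protein RBPJ and a Mastermind coactivator at target genes. Hes and Hey genes encode basic helix-loop-helix repressors that are classic direct targets. In the nervous system Hes1 and Hes5 hold back proneural genes in progenitors and are known from glia, and in vessels Hey1, Hey2 and Heyl are known for arterial fate and mural cells. Nrarp encodes an ankyrin repeat protein that is induced by Notch and limits it by binding the receptor's intracellular domain, and Dtx1 encodes a Deltex ubiquitin ligase that acts on Notch.

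By GENCODE M21 on GRCm38, all 7 are protein-coding genes, at chr16:30064384-30067796 for Hes1, chr4:154960923-154962371 for Hes5, chr3:8663359-8667256 for Hey1 and chr10:30832359-30842801 for Hey2. Heyl is at chr4:123233556-123249875, Nrarp at chr2:25180758-25183339 and Dtx1 at chr5:120680202-120711927. Hes5 and Heyl lie on the same chromosome, far apart.

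RBPJ is known to bind the letters TGGGAA, and these were searched on both strands in the 250 bases before the transcription start. The RefSeq promoter table (GRCm38.p6) held an entry for Hes5, Hey2, Nrarp and Dtx1, that is 4 of the 7 genes. It had none for Hes1, Hey1 and Heyl. The following stretches are shown because they contrast a promoter with a pair of matches, a promoter with 1 match and the promoter without a match of the gene with the largest IP difference. Each runs from base -250 to base -51 before the start, 5′ to 3′ on the strand of the gene, with TGGGAA or its reverse complement TTCCCA in capitals.
Hes5: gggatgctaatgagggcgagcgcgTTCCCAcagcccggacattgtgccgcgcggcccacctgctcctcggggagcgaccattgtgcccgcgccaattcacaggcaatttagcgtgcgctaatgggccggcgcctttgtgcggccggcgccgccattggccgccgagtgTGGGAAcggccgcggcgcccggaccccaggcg
Hey2: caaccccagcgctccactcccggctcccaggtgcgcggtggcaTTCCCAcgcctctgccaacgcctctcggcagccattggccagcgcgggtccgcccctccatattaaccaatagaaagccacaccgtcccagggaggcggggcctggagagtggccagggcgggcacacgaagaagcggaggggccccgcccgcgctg
Nrarp: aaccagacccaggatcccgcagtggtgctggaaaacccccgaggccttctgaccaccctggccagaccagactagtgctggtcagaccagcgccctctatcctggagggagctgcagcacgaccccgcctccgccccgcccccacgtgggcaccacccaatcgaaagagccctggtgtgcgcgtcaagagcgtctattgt
The Hes5 stretch is chr4:154960673-154960872 on the plus strand, Hey2 is chr10:30842834-30843033 on the minus strand and Nrarp is chr2:25180508-25180707 on the plus strand. Hes5 held 2 matches, 1 on the opposite strand from base -226 to base -221 and 1 on its own strand from base -82 to base -77. Hey2 held 1 match, on the opposite strand from base -207 to base -202. All 3 matches lay within the longer form GTGGGAA, so that the shorter and the longer search found the same places. Nrarp and Dtx1 had 0 matches in their 250 bases, which says only that these letters are not in this window. For Dtx1 the window was not upstream of the gene as GENCODE has it. Its bases -250 to -51, chr5:120711720-120711919, lie inside the GENCODE gene, as the RefSeq start is further downstream. Of 32851 promoter windows of this length in the table, 21.6% held TGGGAA at least 1 time and 2.77% at least 2 times. The longer GTGGGAA was in 5.42% of them, and 0.161% held it at least 2 times.

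The libraries held 27.9 to 42.8 M estimated counts in the bacTRAP table and 27.3 to 41.3 M in the cEND table, M standing for 1e6. Levels are given as CPM, counts scaled to 1e6 per library with TMM factors, and p-values come from the quasi-likelihood test of edgeR with Benjamini-Hochberg adjustment over all genes tested. They measure the spread between pools, or between passages of 1 line. Where passage is in the model, they measure the spread that remains between libraries after passage and treatment are fitted, and carry no spread between passages. The IP libraries carry an endothelial label, and all 12 endothelial markers were higher in IP than in INPUT, their sum being 83.6 to 94.4 CPM in HFD IP and 70.2 to 109 CPM in CD IP, against 20.2 to 25.9 CPM in HFD INPUT and 17.0 to 20.5 CPM in CD INPUT. All 10 astrocyte markers were higher in IP too, at a far larger sum of 38963 to 42385 CPM in HFD IP and 41559 to 49536 CPM in CD IP, against 4856 to 5518 CPM in HFD INPUT and 4827 to 6594 CPM in CD INPUT. No marker of either list was at 0 in these groups, so that the IP is called here the RNA of the tagged ribosomes and not an endothelial fraction. In cEND cells the endothelial markers summed to 5890 to 8186 CPM, and the astrocyte markers to 147 to 179 CPM with Gjb6 at 0 in all 3 groups.

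All 7 Notch target genes were higher in the RNA of the tagged ribosomes than in the whole lysate, from 3.10-fold for Dtx1 to 27.6-fold for Nrarp. Of all 17592 genes tested, 83.7% passed the test in this comparison, 41.6% being higher in IP, and for 30.4% every IP library lay above every INPUT library. All 7 genes met both of these, with a median log2 fold change of 2.60 against -0.018 over all genes tested.

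Nrarp, the feedback inhibitor, stood apart by the size of its difference. It had 120, 125, 121 and 137 CPM in HFD IP and 127, 125, 133 and 123 CPM in CD IP. In the lysate it had 4.87, 3.46, 4.50 and 5.72 CPM in HFD INPUT and 3.49, 4.10, 4.97 and 5.26 CPM in CD INPUT. The lowest IP pool was thus far above the highest INPUT pool, and the diets overlapped within each fraction. The log2 fold change of IP over INPUT was 4.79 ± 0.081 (SE, adjusted p = 6.32e-23 by edgeR's quasi-likelihood test), with a 95% interval of 24.5- to 31.0-fold. Pool by pool, IP exceeded the INPUT of the same number by 23.3- to 36.3-fold.

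Heyl, a Hey-family repressor known from vascular mural cells, came next by the size of its difference. It had 224, 251, 290 and 242 CPM in HFD IP and 240, 240, 237 and 264 CPM in CD IP. INPUT held 27.8, 26.5, 26.6 and 26.5 CPM in HFD and 26.0, 23.7, 28.1 and 27.04 CPM in CD. Its log2 fold change was 3.23 ± 0.053 (adjusted p = 1.59e-24, edgeR), the smallest adjusted p of the 7 genes. Markers of pericytes and smooth muscle, 8 genes, ran the other way in sum, at 18.2 to 33.3 CPM in HFD IP and 19.2 to 22.5 CPM in CD IP, against 55.4 to 71.0 CPM in HFD INPUT and 51.0 to 58.7 CPM in CD INPUT. Of those 8 markers 5 were lower and 2 higher in IP, and none was at 0.

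Hes5 and Hes1, the Hes repressors of the set, were higher in IP by nearly the same factor, 6.78-fold and 6.05-fold. Hes5 had 42.9, 38.7, 34.3 and 53.2 CPM in HFD IP and 48.0, 33.1, 44.5 and 36.9 CPM in CD IP, against 5.74, 4.84, 6.14 and 8.45 CPM in HFD INPUT and 7.13, 5.10, 6.04 and 5.36 CPM in CD INPUT. It varied most between pools of a group in IP, with a coefficient of variation of 19.1% in HFD IP and 16.8% in CD IP. In the CD pools the order of the 4 values was the same in IP and INPUT, pool 1 being highest and pool 2 lowest, and in the HFD pools number 4 was highest in both fractions. For Hes5 the log2 fold change was 2.76 ± 0.13 (adjusted p = 8.55e-12, edgeR). Hes1 had 12.2, 11.5, 12.0 and 13.3 CPM in HFD IP and 13.8, 13.7, 10.7 and 11.9 CPM in CD IP, against 1.83, 2.10, 2.07 and 2.36 CPM in HFD INPUT and 2.58, 1.55, 1.49 and 2.37 CPM in CD INPUT. The diets overlapped in both fractions, and the log2 fold change of Hes1 was 2.60 ± 0.10 (adjusted p = 8.49e-18, edgeR).

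Hey1 and Hey2, repressors known from arterial fate, were both several-fold higher in IP. Hey1 had 185, 210, 184 and 207 CPM in HFD IP and 208, 185, 178 and 164 CPM in CD IP, against 42.9, 47.2, 39.1 and 44.7 CPM in HFD INPUT and 40.0, 43.2, 42.5 and 45.3 CPM in CD INPUT. Hey2 had 26.8, 26.0, 29.6 and 27.8 CPM in HFD IP and 27.6, 30.4, 26.0 and 28.0 CPM in CD IP, against 4.41, 4.39, 4.94 and 4.82 CPM in HFD INPUT and 3.93, 4.66, 5.46 and 4.24 CPM in CD INPUT. For both genes the IP and INPUT ranges were far apart and the diets overlapped. The log2 fold change was 2.14 ± 0.053 for Hey1 and 2.59 ± 0.065 for Hey2 (adjusted p = 1.16e-21 and 1.30e-21, edgeR). The 6 arterial endothelial markers summed to less in IP, at 11.2 to 12.8 CPM in HFD IP and 10.8 to 12.6 CPM in CD IP, against 19.6 to 22.7 CPM in HFD INPUT and 17.6 to 20.7 CPM in CD INPUT, although 4 of the 6 were higher in IP and 1 was lower.

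Dtx1, the Deltex ligase, had the smallest difference of the set. It had 103, 105, 106 and 113 CPM in HFD IP and 112, 96.1, 101 and 113 CPM in CD IP, against 32.0, 30.2, 35.6 and 34.9 CPM in HFD INPUT and 34.0, 32.7, 37.0 and 37.4 CPM in CD INPUT. IP over INPUT gave a log2 fold change of 1.63 ± 0.049 (adjusted p = 4.12e-20, edgeR), and pool by pool IP exceeded INPUT by 2.74- to 3.48-fold. The endothelial and the astrocyte markers both moved with these differences. Of 6 tanycyte and ependymal markers 4 were higher and 1 was lower in IP, with a median log2 fold change of 1.07. Their sum was 38.1 to 70.6 CPM in HFD IP and 38.8 to 45.0 CPM in CD IP, against 13.8 to 20.5 CPM in HFD INPUT and 16.6 to 18.5 CPM in CD INPUT, and none was at 0. All 8 neuron and all 6 microglia markers were lower in IP, as were 5 of 7 markers of oligodendrocytes and their precursors, with 2 higher, and 4 of 5 fibroblast markers, with 1 higher. The part of all these cell types in the results was not tested. A marker lower in IP than in INPUT made up less of the RNA of the tagged ribosomes than of the lysate, which is no measure of cell numbers. Within the pooled tissue of INPUT, the number of cells of a type and the RNA per cell cannot be told apart.

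**Figure D1:**
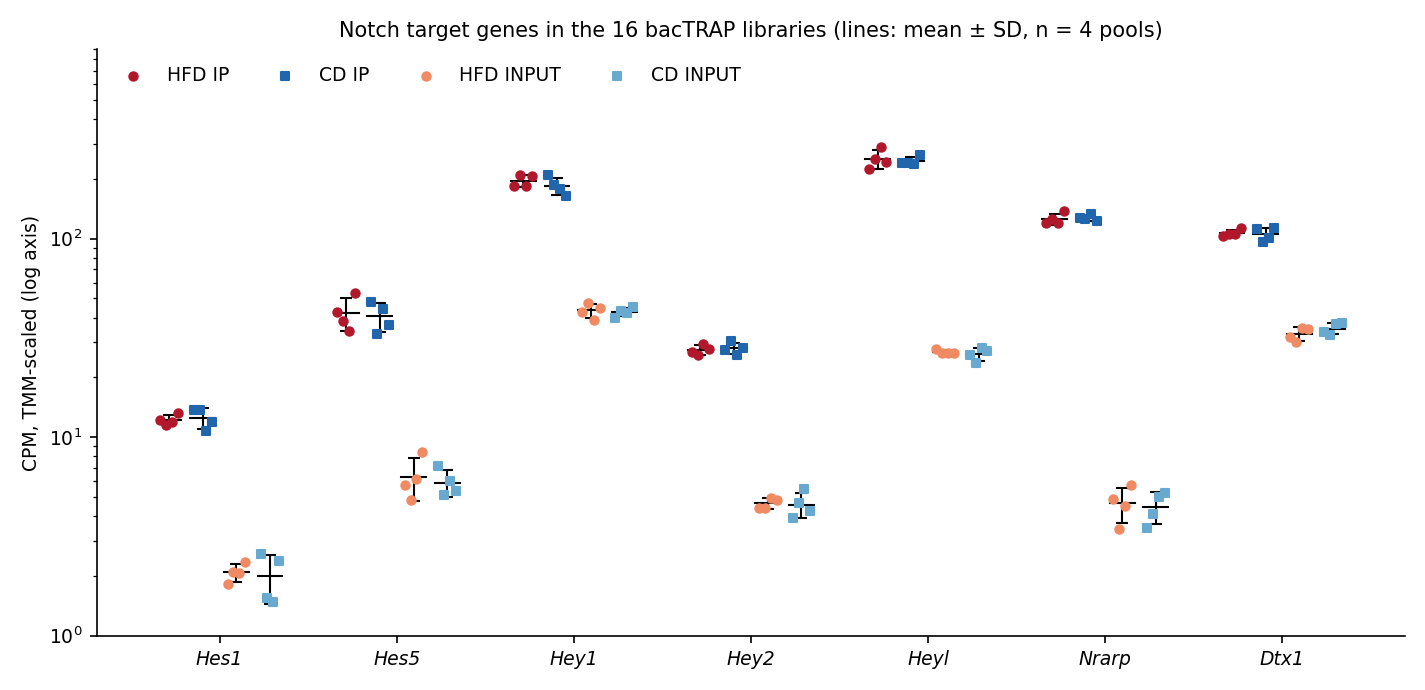
CPM of the 7 genes (x axis) on a log axis in HFD IP, CD IP, HFD INPUT and CD INPUT, 1 point per pool, with mean ± SD over 4 pools. In each gene the IP points lie above all INPUT points, the widest gap being that of Nrarp, while HFD and CD points overlap.

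Divided by summed exon length, the levels could be ordered across genes. In the 8 IP libraries Hey1 had 58.2 ± 5.1 CPM per kb, Nrarp 48.9 ± 2.3, Heyl 48.6 ± 4.0, Hes5 30.4 ± 5.1, Dtx1 20.1 ± 1.2, Hes1 6.08 ± 0.54 and Hey2 6.05 ± 0.35 (SD, n = 8). Nrarp and Heyl did not differ beyond their spread, nor did Hes1 and Hey2, and the range of Hey1, from 50.1 to 64.2 CPM per kb, overlapped those of Nrarp and Heyl. The order in INPUT was another one. There Hey1 had 13.2 ± 0.82 CPM per kb, Dtx1 6.49 ± 0.47, Heyl 5.19 ± 0.27, Hes5 4.48 ± 0.87, Nrarp 1.76 ± 0.32, Hes1 1.00 ± 0.19 and Hey2 1.00 ± 0.10 (SD, n = 8). Hes5 overlapped Heyl and also Dtx1, and Hes1 overlapped Hey2. Nrarp was thus level with Heyl in IP and far below it in INPUT, and Dtx1 was below Heyl in IP and above it in INPUT.

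As shares of the summed CPM per kb of the 7 genes, Nrarp made up 22.0 ± 0.41% in HFD IP and 22.8 ± 1.1% in CD IP, against 5.37 ± 0.86% in HFD INPUT and 5.22 ± 0.79% in CD INPUT (mean ± SD of 4 pools). Hey1 took the largest share in each group, at 27.2 ± 1.3% in HFD IP and 26.1 ± 1.8% in CD IP, against 40.0 ± 3.5% in HFD INPUT and 39.8 ± 2.1% in CD INPUT. The share of Dtx1 was 9.15 ± 0.15% in HFD IP and 9.29 ± 0.64% in CD IP, against 18.9 ± 1.4% in HFD INPUT and 20.3 ± 0.49% in CD INPUT. Heyl held 22.3% in both IP groups, against 15.8% in HFD INPUT and 15.5% in CD INPUT. The mixture of Notch target transcripts on tagged ribosomes thus differed from that of the lysate mainly in these shares. Those of Nrarp and Heyl were larger and those of Hey1 and Dtx1 smaller, while the level per length of all 7 genes was higher in IP.

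**Figure D2:**
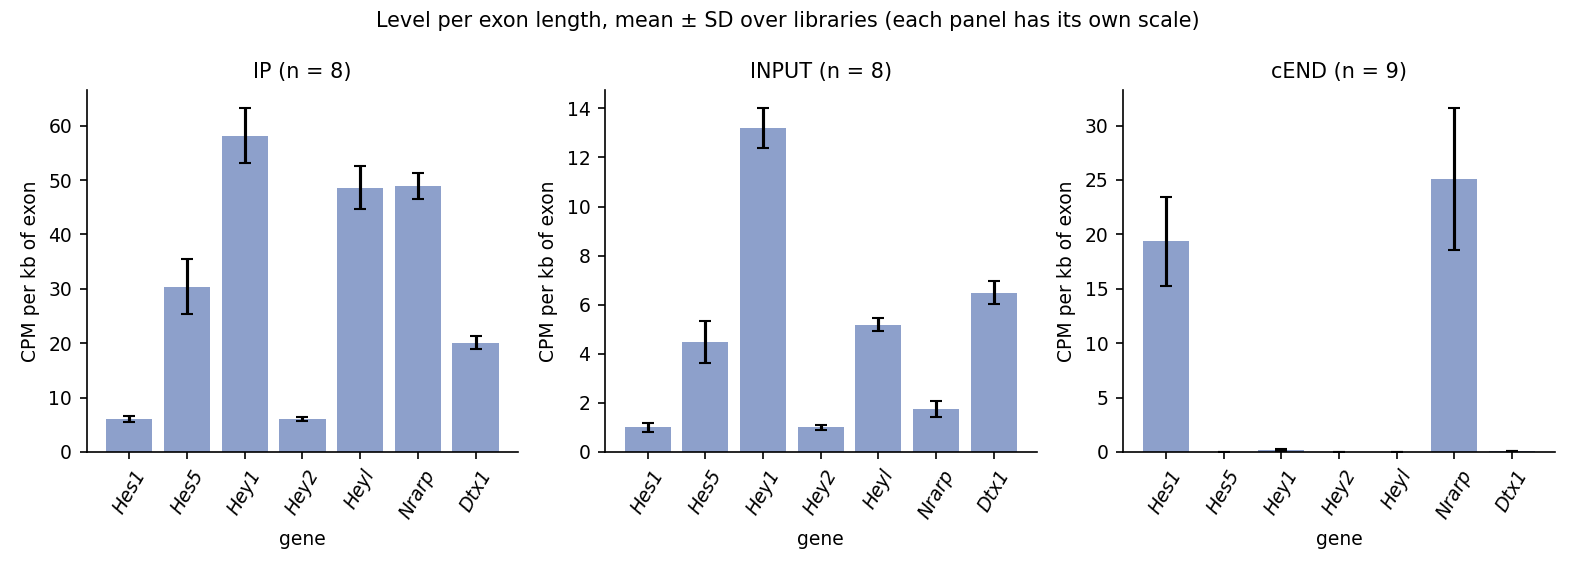
CPM per kb of summed exon length for the 7 genes in the 8 IP, 8 INPUT and 9 cEND libraries, bars showing the mean and error bars the SD over libraries, each panel with its own y scale. Nrarp is at 48.9 CPM per kb in IP and 1.76 in INPUT, and in cEND cells Nrarp at 25.1 and Hes1 at 19.4 stand over all others.

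The wider pathway, in lists of 79 other genes, was described by counts over the same fit. All 4 Notch receptors were higher in IP, namely Notch3 with a log2 fold change of 2.71 ± 0.10, Notch1 with 2.39 ± 0.087, Notch4 with 1.96 ± 0.15 and Notch2 with 1.81 ± 0.076. Of 8 ligands 2 were higher and 6 lower, Jag1 at 1.69 ± 0.13 among the higher ones, and Dlk1, a non-canonical ligand, at -1.81 ± 0.069 and Dll1 at -1.85 ± 0.21 among the lower. Lfng, a Fringe sugar transferase that tunes how receptors read ligands, was the most different of 5 glycosylation genes, at 2.85 ± 0.077. Of the nuclear complex 5 of 7 genes were higher and 1 lower, and Maml2 at 1.59 ± 0.044 and Maml3 at -1.95 ± 0.063, both Mastermind coactivators, went opposite ways. Of 9 turnover genes 7 were higher and 2 lower, with the Deltex-family genes Dtx3l at 1.36 ± 0.069, Dtx4 at 1.20 ± 0.052 and Dtx3 at 0.85 ± 0.054 among the higher ones. Of 12 genes of the cleavage and ligand activation list 7 were higher and 3 lower, and of 9 corepressors 7 were higher and none lower.

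Of 12 measured targets outside the set 5 were higher and 4 lower in IP, where 7315 of all 17592 genes were higher and 7409 lower. Among the 12 were Sox17, an arterial transcription factor, at 3.15 ± 0.21 and Fabp7, a fatty acid binding protein of radial glia and astrocytes, at 2.70 ± 0.10, against Unc5b, an endothelial guidance receptor, at -2.56 ± 0.084 and Efnb2, the arterial ephrin, at -1.67 ± 0.074.

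After 3 days of high-fat diet none of the 7 genes passed the test in the RNA of the tagged ribosomes. Their log2 fold changes lay between -0.020 for Hes1 and 0.11 for Hey1, with a median of 0.035, against 0.0015 over all 15858 genes tested. In this comparison 0.0883% of genes passed the test, 14 in number, and 1831 genes had an unadjusted p under 0.05. None of the 7 did, and DESeq2 called none of them either. The lowest adjusted p was 0.616, that of Hey1, with means and SDs of 196 ± 14 CPM in HFD IP and 184 ± 19 CPM in CD IP.

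The intervals show which sizes of change these pools could not tell from none. For Nrarp the log2 fold change of HFD over CD in IP was 0.0042 ± 0.065, with a 95% interval from 0.912- to 1.10-fold, and its means were 126 ± 8.0 CPM in HFD IP and 127 ± 4.4 CPM in CD IP. The interval ran from 0.932- to 1.16-fold for Heyl, from 0.964- to 1.21-fold for Hey1, from 0.928- to 1.13-fold for Dtx1 and from 0.890- to 1.11-fold for Hey2. Hes1 had 0.853 to 1.14-fold, and Hes5, the most variable gene, 0.826 to 1.35-fold. In IP all 10 astrocyte markers were tested for the diet, of which 1 was lower in HFD, Agt, the angiotensinogen gene, at -0.54 ± 0.093 (adjusted p = 0.0321, edgeR), and 0 of 12 endothelial markers passed.

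In the whole lysate the diet comparison called 0.0355% of 16879 genes, 6 in all, with 1258 at an unadjusted p under 0.05. None of the 7 genes was among either, nor among the genes called by DESeq2. The lowest adjusted p was 0.814, for Dtx1, whose log2 fold change was -0.087 ± 0.068 with means of 33.2 ± 2.5 CPM in HFD INPUT and 35.3 ± 2.3 CPM in CD INPUT. The other 6 lay between 0.024 for Hey1 and 0.11 for Hes5. The difference between both diet effects, IP minus INPUT, called 0% of 17592 genes by edgeR, with 755 at an unadjusted p under 0.05 and 2 called by DESeq2, and none of the 7 genes was in any of these. The 4 receptors, 8 ligands and all other pathway lists had no gene called for the diet in IP or INPUT.

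**Figure D3:**
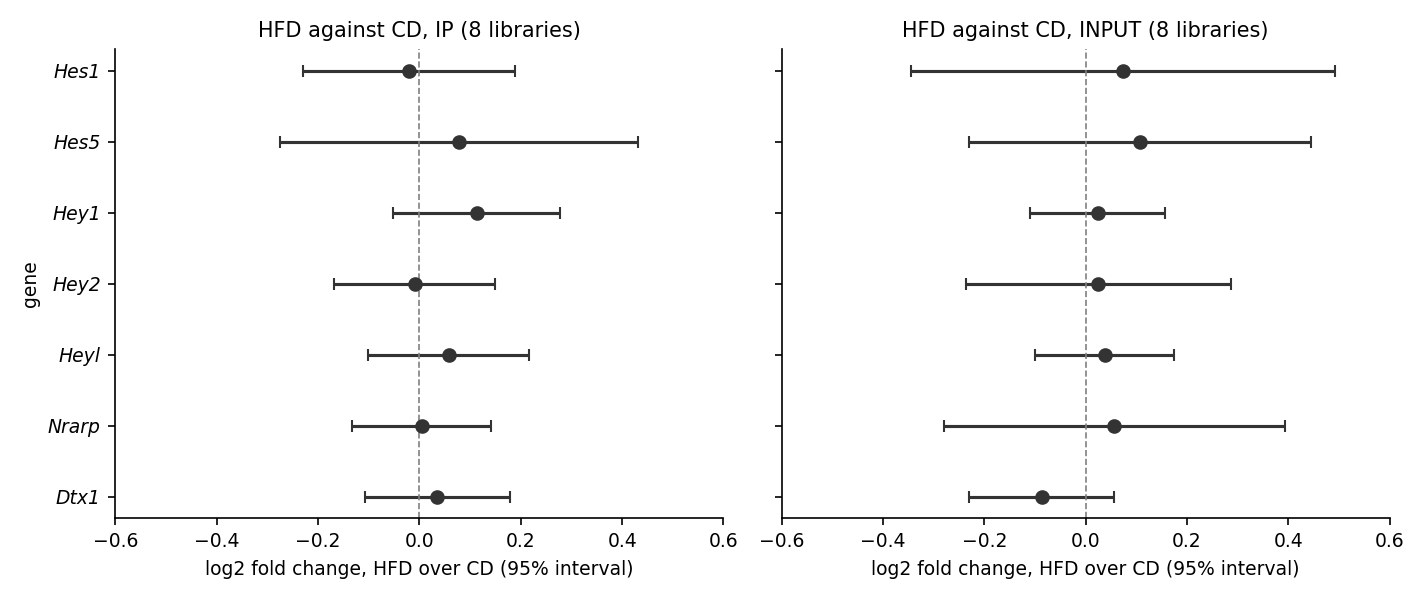
Log2 fold change of HFD over CD with its 95% interval for each of the 7 genes (rows), for IP and for INPUT (8 libraries each). Each interval spans 0, the narrowest in IP being that of Nrarp and the widest that of Hes5.

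In cEND cells the set was reduced to a few transcripts. Nrarp was highest per length, at 25.1 ± 6.5 CPM per kb, and Hes1 came next at 19.4 ± 4.1 (SD, n = 9), their ranges overlapping. Hey1, at 0.197 ± 0.12, and Dtx1, at 0.0972 ± 0.036 CPM per kb, were low, with 6 to 41 and 10 to 24 counts per library, and overlapped each other. Hes5 and Heyl had 0 counts in all 9 libraries, and Hey2 had 1 count in 1 library, WZB117 0.5 µM at passage 18. A count of 0 allows up to 3 counts per library, that is 0.0727 to 0.110 CPM. These limits cover counting error only. Hes1 and Hey2, which were level per length in the hypothalamus, were thus far apart in culture.

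Nrarp was higher with 10 µM WZB117 at every passage. At passages 12, 14 and 18 in that order it had 40.3, 75.6 and 62.2 CPM with DMSO, 46.1, 75.0 and 52.5 CPM at 0.5 µM and 59.5, 86.2 and 86.2 CPM at 10 µM. The 3 groups overlapped across passages, while within a passage 10 µM was above DMSO by 47.8%, 14.1% and 38.5%. Without regard to passage the log2 fold change of 10 µM over DMSO was 0.38 ± 0.26 (adjusted p = 0.699, edgeR). With passage as a block, which pairs libraries of the same passage, it was 0.41 ± 0.089 (adjusted p = 0.00412), a 95% interval of 1.16- to 1.51-fold. Without the 10 µM library of passage 12 the blocked value was 0.38 with an adjusted p of 0.0518.

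Hes1 also had higher values with 10 µM WZB117 at every passage. At passages 12, 14 and 18 it had 35.5, 29.7 and 44.8 CPM with DMSO, 36.9, 28.4 and 48.2 CPM at 0.5 µM and 40.6, 37.4 and 53.6 CPM at 10 µM. Within a passage 10 µM was above DMSO by 14.4%, 26.1% and 19.6%, although the groups overlapped across passages. The log2 fold change was 0.26 ± 0.22 (adjusted p = 0.792, edgeR) without the block and 0.26 ± 0.072 (adjusted p = 0.00992) with it. The blocked call was lost without DMSO at passage 18, at 0.25 with an adjusted p of 0.0721, and without 10 µM at passage 14, at 0.20 with an adjusted p of 0.0794.

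Hey1 had few counts, and its lower values with WZB117 did not pass the test. At passages 12, 14 and 18 it had 1.09, 1.26 and 0.411 CPM with DMSO, 0.899, 0.609 and 0.175 CPM at 0.5 µM and 0.682, 0.493 and 0.161 CPM at 10 µM. In each passage the CPM followed the dose downwards, and across passages the groups overlapped. Between 0.5 and 10 µM the counts themselves were 27 and 27 at passage 12, 25 and 17 at passage 14 and 6 and 6 at passage 18. At passages 12 and 18 that step in CPM thus came from the scaling by library and not from fewer counts. The log2 fold change of 10 µM over DMSO was -1.03 ± 0.68 (adjusted p = 0.685, edgeR) and with the block -1.10 ± 0.41 (adjusted p = 0.0618). Dtx1 had 0.776, 0.582 and 0.463 CPM with DMSO, 0.799, 0.244 and 0.495 CPM at 0.5 µM and 0.278, 0.435 and 0.538 CPM at 10 µM. Its within-passage differences had both signs, and its blocked log2 fold change of 10 µM over DMSO was -0.51 ± 0.47 (adjusted p = 0.538, edgeR).

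Of all 15466 genes tested, 1.27% passed the test for 10 µM over DMSO without the block and 18.5% with it, so that 0 of 4 and 2 of 4 of the genes measured here stand against these shares. At an unadjusted p under 0.05 there were 0 of 4 without the block and 3 of 4 with it, where all genes gave 1728 and 4473 of 15466, and DESeq2 called none without the block. For 10 µM over 0.5 µM the shares were 1.27% without and 17.8% with the block. There the blocked log2 fold change was 0.43 ± 0.089 for Nrarp (adjusted p = 0.0029) and 0.23 ± 0.071 for Hes1 (adjusted p = 0.0262, edgeR), and neither passed without the block. The call of Hes1 was lost on leaving out 0.5 µM at passage 12 or 14 or 10 µM at passage 14, the adjusted p then being 0.0562, 0.278 and 0.163. Both comparisons share the 10 µM libraries.

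At 0.5 µM none of the 4 genes passed the test against DMSO. The share of genes called was 0% of 15466 without the block, with 55 at an unadjusted p under 0.05 and 0 called by DESeq2. With the block 0 genes were called, and 219 had an unadjusted p under 0.05. The blocked log2 fold changes of 0.5 µM over DMSO were -0.022 ± 0.089 for Nrarp, with a 95% interval of 0.863- to 1.12-fold, and 0.035 ± 0.072 for Hes1, with 0.925- to 1.14-fold. Hey1 was at -0.80 ± 0.40 with an unadjusted p of 0.0562 and an adjusted p of 0.999 (edgeR).

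**Figure D4:**
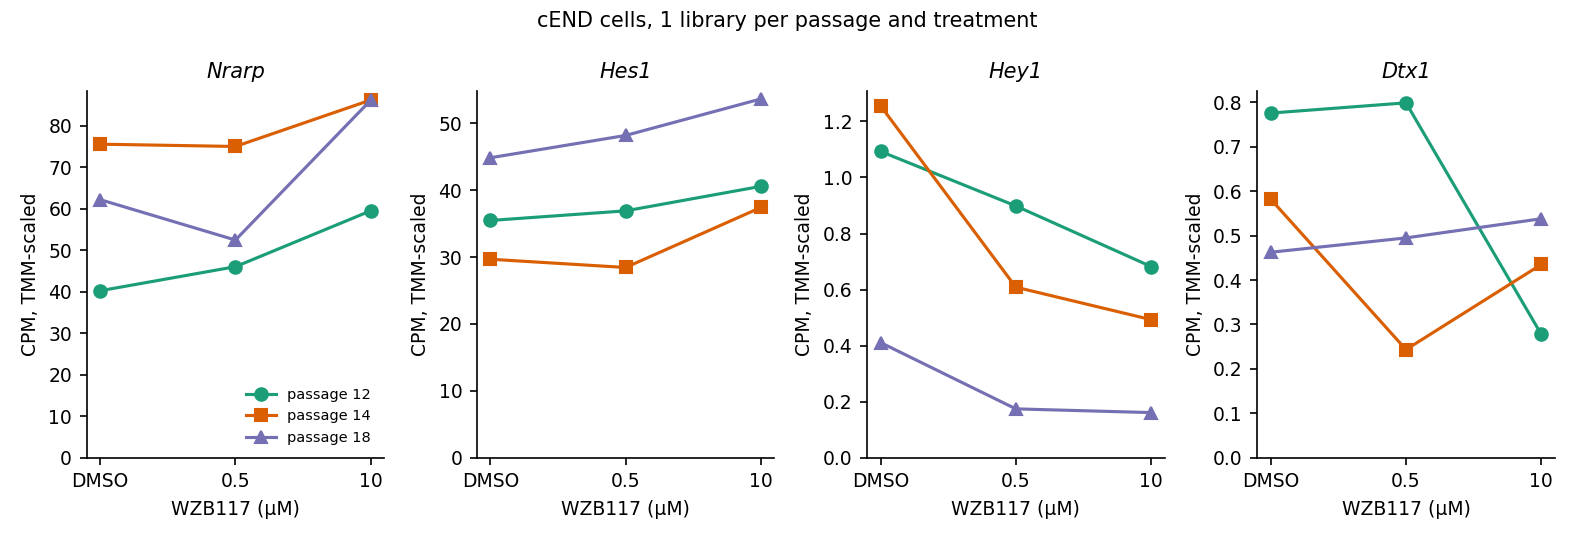
CPM of Nrarp, Hes1, Hey1 and Dtx1 in cEND cells (y axes from 0, 1 scale per gene) against DMSO, 0.5 and 10 µM WZB117, with 1 line per passage and 1 library per point. In Nrarp and Hes1 each line ends above its DMSO value. In Hey1 each line runs downwards, a difference that did not pass the test. Its counts at 0.5 and 10 µM were equal at passage 12, with 27 each, and at passage 18, with 6 each.

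Without the block, Lfng at -0.58 ± 0.10 (adjusted p = 0.0291) and Numbl, a Numb-family inhibitor of Notch, at 0.70 ± 0.13 (adjusted p = 0.0373, edgeR) were the genes of the pathway lists that passed for 10 µM over DMSO. With the block they were joined by the receptor Notch2 at 0.33 ± 0.070, the ligands Jag1 at -0.37 ± 0.064 and Dll1 at 0.26 ± 0.062, and the coactivator Maml1 at 0.33 ± 0.084, while Notch1, at 0.056 ± 0.071, and Notch4, at -0.091 ± 0.083, did not pass. In counts, 1 of 3 receptors, 3 of 11 cleavage and activation genes, 2 of 7 genes of the nuclear complex, 3 of 9 corepressors and 4 of 9 turnover genes were higher with the block and none of these lists had a lower one. Among all 15466 genes the blocked test called 1427 higher and 1437 lower. Of 4 ligands 1 was higher and 1 lower, and of 10 other targets 3 were higher and 1, the cell cycle gene Ccnd1 at -0.47 ± 0.078, was lower. The endothelial markers had no gene called among 12 without the block. With it 3 were higher, Flt1 at 0.30 ± 0.062, Esam at 0.23 ± 0.063 and Cldn5 at 0.20 ± 0.065, and 1 was lower, Kdr at -0.34 ± 0.062. Their part in the results was not tested.

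Hes1, Hey1 and Nrarp also differed between passages. With treatment as a covariate, 3 libraries per passage were compared, and 35.1% of genes passed between passages 18 and 12, 21.6% between 14 and 12 and 33.1% between 18 and 14. The 3 comparisons share libraries, and each passage was 1 culture stage, so that passage and any other difference between those cultures cannot be told apart. How many of all genes had separate libraries between passages was not counted. Where libraries of a gene lie all above or all below, this only describes its values.

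Hes1 was highest at passage 18, where its lowest library was above every library of passages 12 and 14. Its log2 fold change was 0.38 ± 0.071 for passage 18 over 12 (adjusted p = 0.000149) and 0.62 ± 0.072 for 18 over 14 (adjusted p = 9.92e-08, edgeR). For 14 over 12 it was -0.25 ± 0.072 (adjusted p = 0.0141), with overlapping libraries, a call lost without the treatment covariate, at -0.24 with an adjusted p of 0.222. That call was also lost on leaving out DMSO at passage 12 or 0.5 µM at passage 12 or 14, the adjusted p being 0.0743, 0.0644 and 0.184.

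Hey1 went the other way, and every library of passage 18 was below every library of passages 12 and 14. Its log2 fold change was -1.90 ± 0.43 for passage 18 over 12 (adjusted p = 0.00106) and -1.63 ± 0.43 for 18 over 14 (adjusted p = 0.00412, edgeR), the second being -1.48 with an adjusted p of 0.0516 without DMSO at passage 14. Passages 14 and 12 overlapped, at -0.27 ± 0.38.

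Nrarp had its highest mean at passage 14, with libraries that overlapped those of passage 18. Its log2 fold change was 0.71 ± 0.089 for passage 14 over 12 (adjusted p = 1.97e-05), where all libraries were above, and 0.45 ± 0.090 for 18 over 12 (adjusted p = 0.000916, edgeR), where they overlapped. Passage 18 over 14 gave -0.26 ± 0.088 (adjusted p = 0.0318), which lost its call without DMSO at passage 14 or 18 or 0.5 µM at passage 14 or 18, the adjusted p being 0.136, 0.0775, 0.187 and 0.303. Without the treatment covariate no passage comparison of Nrarp passed, with adjusted p of 0.0571 for 14 over 12, 0.135 for 18 over 12 and 0.467 for 18 over 14. Dtx1 passed in none of the 3.

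**Figure D5:**
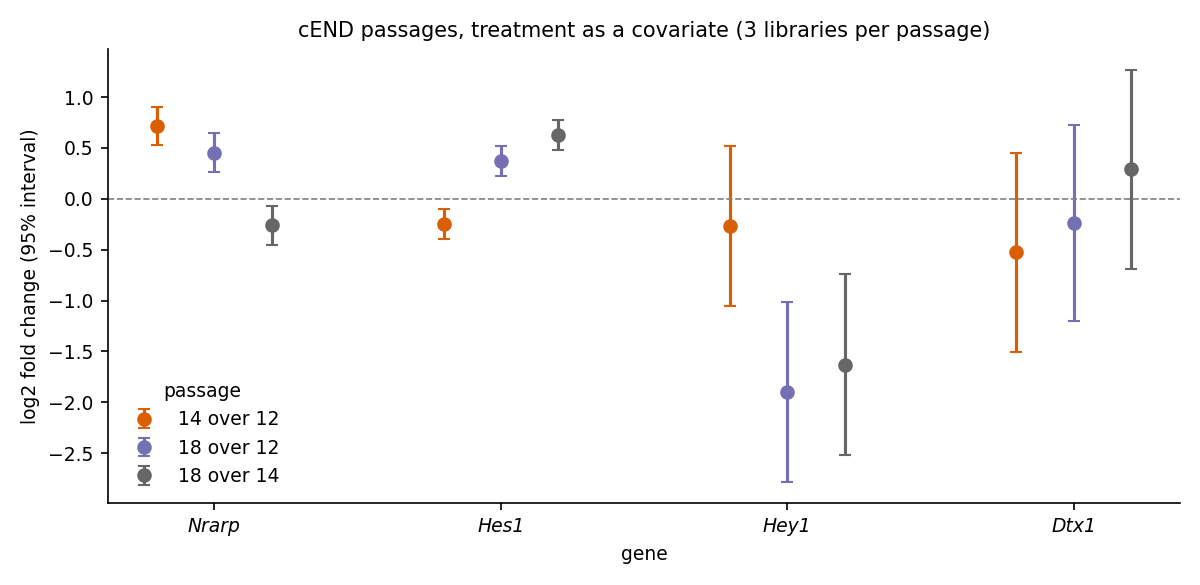
Log2 fold change with its 95% interval for Nrarp, Hes1, Hey1 and Dtx1 between passages of cEND cells, from 9 libraries with treatment as a covariate. Hes1 is positive and Hey1 negative in both comparisons with passage 18, while Nrarp is highest at passage 14.

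Other pathway genes also moved between passages 18 and 12. Of 4 measured ligands 3 were higher at passage 18, Dll1 at 0.77 ± 0.063, Dll4 at 0.63 ± 0.093 and Jag2 at 0.90 ± 0.14, and of 3 receptors 2 were higher, Notch4 at 0.48 ± 0.083 and Notch1 at 0.26 ± 0.071. Rbpj, the DNA-binding partner, was the gene of its list of 7 that was lower, at -0.62 ± 0.071. Of 9 turnover genes 4 were higher and 3 lower, Dtx4 at -2.29 ± 0.20 among the lower. Of 10 other targets 1 was higher and 3 were lower, among them the arterial connexin gene Gja4 at -3.64 ± 0.72 (adjusted p = 0.000673, edgeR). All 12 endothelial markers were higher at passage 18 than at passage 12, with a median log2 fold change of 0.39, and their part in the passage results was not tested.

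The genes whose log2 CPM ran most like each of the 4 in the 9 cEND libraries were described by Pearson's r over 10518 genes. For Nrarp they were Shb with 0.977, Rusc2 with 0.963 and Ppm1h with 0.960. For Hes1 they were Rsrp1 with 0.979, Nxpe4 with 0.976 and Trp53i11 with 0.973, and for Hey1 they were Tmem70 with 0.975, Echs1 with 0.973 and Aldh1a3 with 0.971. Dtx1 had Zfp113 with 0.936, Pyurf with 0.871 and Prpf39 with 0.861. With 6 to 41 counts per library for Hey1 and 10 to 24 for Dtx1, counting error enters each r of these 2 genes. The 9 points share passages, so that such values follow passage as well as dose. Hes1 and Hey1 had r = -0.814 with each other and Hes1 and Nrarp r = -0.0026. Over the 8 IP libraries, Hes5 and Nrarp had r = 0.694 with each other, the largest value of any pair of the 7 genes, and Hes5 had r = -0.542 with Hey2 and -0.523 with Heyl. Of 11710 genes there, the closest was Syngr2 to Hes1 with 0.935, Nup85 to Hes5 with 0.961 and Ttc4 to Hey1 with 0.957. It was Otud1 to Hey2 with 0.952, Shmt1 to Heyl with 0.959, Phb to Nrarp with 0.972 and Abcb9 to Dtx1 with 0.967. In both sets of libraries these genes were picked as the highest r of all those genes, over only 9 or 8 libraries. The r of Hes5 and Nrarp was likewise picked as the largest of all pairs. No r was tested, and none shows shared regulation.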

How the data were processed

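Estimated counts per Ensembl gene were deposited in 2 tables, 16 bacTRAP and 9 cEND libraries. They were not scaled, as library totals differ, and 17.3% and 19.8% of the values were not whole. The build GRCm38 is named in the submitters' processing notes. The aligner, the program that estimated the counts, its use of strand and the annotation release are not given in the sources used here, and symbols, coordinates and exon lengths were taken from GENCODE M21 by identifier.

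Counts were rounded, scaled with TMM factors and tested with edgeR 4.0.16 (filterByExpr, robust quasi-likelihood F test, 2-sided) under R 4.3.3. P-values were adjusted by Benjamini-Hochberg within a fit, with a threshold of 0.05. IP against INPUT used 16 libraries, the diet the 8 libraries of a fraction, WZB117 all 9 without a block, and passage all 9 with treatment as a covariate. CPM used the TMM factors of the whole table. Alternatives were DESeq2 1.42.0, other scaling factors, no filter, a replicate block, other sets of libraries, fits without ribosomal and mitochondrial RNA (391 genes, 35.3% of INPUT and 3.23% of IP counts) and leaving out each library. The code was tested on simulated data.

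The passage number in the labels pairs the cEND libraries. Deviations from the group mean of same-passage libraries correlated at 0.378 to 0.577, so that blocked values stand beside the unblocked ones. The passage block with libraries left out was added after seeing the data. Samples were grouped by their labels. No pair of libraries of a group agreed within sampling noise, chi-square over its degrees of freedom being at least 9.08. The members and lists were chosen with earlier results of these data known. All 7 genes were always named, up to 4 genes per list were those of smallest p in a comparison, and up to 3 like genes those of highest r. The result of 1 gene list is not reported here.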

Additional observations from a re-analysis of the deposited data

Results flagged for a closer look

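Heyl was flagged in 2 groups of 4 pools because 1 pool lay far from the other 3, by Dixon's gap over range. In CD IP pool 4 had 264.1 CPM, above the other pools at 237 to 240 CPM. In HFD INPUT pool 1 had 27.85 CPM, above the others at 26.5 to 26.6 CPM, a group whose coefficient of variation was only 2.39%. Such a rule flags about 1 group in 20 by chance, and 28 groups were examined.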

How the results depend on the processing

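Counts of genes called depended on the setting more than the 7 genes did. For HFD over CD in IP, 14 genes became 183 with DESeq2, 398 without a filter, 121 in a fit of all 16 libraries and 52 with a replicate block, and 5 to 50 on leaving out 1 library. In INPUT, 6 became 50, 116, 2 and 43 under the same settings, and 2 to 17. The interaction went from 0 to 2 with DESeq2, 1 without a filter and 1 with the block, and 0 to 1 on leaving out 1 library. For WZB117 10 µM over DMSO, 197 became 504 with DESeq2 and 2864 with the replicate block, and 38 to 171 on leaving out 1 library, or 1731 to 2857 with the block. For 10 over 0.5 µM, 197 became 483 and 2759, with 33 to 152, or 1660 to 2709 with the block. Without treatment as a covariate the passage counts of 5422 for 18 over 12, 3336 for 14 over 12 and 5121 for 18 over 14 became 3269, 1623 and 2924, and on leaving out 1 library 14 over 12 gave 2086 to 2885.

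All 7 genes kept their call for IP over INPUT under all 21 alternatives, the log2 fold change of Nrarp ranging from 4.73 to 4.85 and that of Dtx1 from 1.60 to 1.66. The labels do not say whether the pool numbers of HFD and CD, or of IP and INPUT, pair samples. The correlations of their deviations were weak, from -0.016 to 0.136, and do not decide this. The main fit took the libraries as unpaired. The replicate block on the pool numbers changed no call of the 7 genes. It made the SE of Hes5 for IP over INPUT 0.058, against 0.131 without it. In cEND cells the block is what called Nrarp and Hes1. No setting called a diet effect in any of the 7 genes.

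Directions changed only in values of the 7 genes that did not pass the test under either setting. Nrarp for the diet in IP was -0.014 in the fit of all 16 libraries, and Heyl in the interaction was -0.0030 with the replicate block. On leaving out 1 library, log2 values for the diet in IP ran from -0.089 to 0.026 for Hes1, from -0.058 to 0.17 for Hes5, from -0.046 to 0.029 for Hey2, from -0.018 to 0.11 for Heyl, from -0.045 to 0.026 for Nrarp and from -0.012 to 0.066 for Dtx1. For the diet in INPUT they ran from -0.041 to 0.21 for Hes1, from -0.078 to 0.21 for Hes5, from -0.018 to 0.068 for Hey1, from -0.041 to 0.12 for Hey2, from -0.0097 to 0.073 for Heyl and from -0.070 to 0.17 for Nrarp. For the interaction they ran from -0.18 to 0.13 for Hes5, from -0.14 to 0.0093 for Hey2, from -0.070 to 0.055 for Heyl and from -0.17 to 0.062 for Nrarp. For 0.5 µM over DMSO they ran from -0.17 to 0.22 for Hes1, from -0.26 to 0.17 for Nrarp and from -0.71 to 0.099 for Dtx1. For 10 over 0.5 µM they ran from -0.77 to 0.17 for Hey1 and from -0.63 to 0.18 for Dtx1, with the block from -0.60 to 0.31 for Dtx1. Between passages Dtx1 ran from -0.71 to 0.21 for 18 over 12 and from -0.099 to 0.59 for 18 over 14. The cause of these changes was not tested. In cEND cells Hey1 had 6 to 41 and Dtx1 10 to 24 counts per library.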

Other observations

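Id factors, helix-loop-helix proteins that bind and block basic helix-loop-helix partners, were all 4 higher in IP than in INPUT, with log2 fold changes of 3.16 ± 0.15 for Id1, 2.83 ± 0.069 for Id3, 2.59 ± 0.076 for Id2 and 1.03 ± 0.094 for Id4 (SE, edgeR). The median of the 4 was 2.71, beside 2.60 for the 7 Notch target genes. None of the 4 passed the test for the diet in IP. In cEND cells with 10 µM WZB117 over DMSO, Id2 was at -0.40 ± 0.082 (adjusted p = 0.000864) and Id1 at -0.40 ± 0.11 (adjusted p = 0.0205) with passage as a block, while neither passed without it, at adjusted p of 0.133 and 0.530. Id1 was also lower at passage 18 than at passage 12, at -0.48 ± 0.11 (adjusted p = 0.00337, edgeR).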
